A study of Mus musculus with 6 samples.

Results

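The transcripts of 10 genes for amino acid transporters of the plasma membrane were followed in cultured mouse fetal liver cells. They are Slc7a11, Slc7a5, Slc3a2, Slc7a1, Slc7a3, Slc1a4, Slc1a5, Slc38a1, Slc38a2 and Slc43a1, chosen by symbol from the 54232 gene IDs counted in each library. The cells came from livers of E13.5 mouse embryos of strain C57/B6 and had been depleted of cells carrying Ter-119, an antigen of maturing red cells. The 3 libraries of the day 0 group were made from the purified cells without treatment. The 3 libraries of the 30 h group were made after 30 h of culture with erythropoietin (the main growth signal of the red cell lineage), with the solvent DMSO added at 24 h and left for 6 h. Time in culture, erythropoietin and DMSO cannot be told apart in this design, and no source says that libraries of a group came from separate embryos or cultures, so p-values measure the spread between these libraries only. The series addresses how chromatin and nucleus condense as erythroblasts mature, and the comparison used here asks which transporter transcripts changed over the culture.

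Amino acid transporters of the plasma membrane bring in the building blocks of protein and the precursors of heme and glutathione. Some are heteromeric: a light chain of the SLC7 family carries the amino acid, and the heavy chain encoded by Slc3a2 takes it to the cell surface. Other transporters couple uptake to sodium (SLC38 family), exchange one neutral amino acid for another (SLC1A4 and SLC1A5) or let large neutral amino acids through without exchange (SLC43 family). Red cell precursors make large amounts of globin, and leucine uptake through the SLC43A1 protein, called LAT3, is known to matter for that step.

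Total counts ranged from 19241780 to 29949173 per library. Erythroid markers rose in 9 of 9 cases, with a summed level of 1453 to 1611 CPM at day 0 and 92744 to 132734 CPM at 30 h (CPM is a count scaled to the library's total, here with TMM factors that correct for RNA composition). Markers of stem and progenitor cells, the label given to both groups, fell in 7 of 8 cases and summed to 643 to 672 CPM and then 255 to 273 CPM. All 10 hepatoblast markers fell, from a sum of 13412 to 15126 CPM to one of 784 to 2288 CPM, as did 8 of 8 endothelial markers (225 to 261 CPM, then 36.7 to 47.4 CPM) and 7 of 8 mesenchymal markers (1522 to 1942 CPM, then 25.2 to 60.4 CPM). None of these markers was at 0 in all 3 libraries at 30 h. Markers of macrophages (3 of 8 higher, 2 lower), megakaryocytes (1 of 6 higher, 2 lower) and granulocytes and mast cells (3 of 8 higher, 3 lower) moved in both directions. The day 0 cells thus held markers of several cell types, and in bulk RNA fewer cells of a type and less RNA per cell cannot be told apart. The part of these markers' cells in the transporter changes was not tested. Of the 30 h libraries, replicate 3 stood apart: chi-square over degrees of freedom, which compares counts with sampling noise, was 99.8 and 55.1 against replicates 1 and 2, and 12.1 between those.

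Of the 10 transporters, 5 rose, 1 fell and 4 did not pass the test (edgeR quasi-likelihood test, adjusted p below 0.05 over 16150 genes). Those that rose were Slc7a11, Slc7a3, Slc43a1, Slc3a2 and Slc1a5, and Slc38a1 fell. All 10 had passed the filter on low counts. Across all genes tested, 74.5% were called, 34.4% higher and 40.1% lower, so a call by itself was common in this comparison. The 5 that rose did so by at least 2-fold, as did 20.6% of all genes tested, and the 1 that fell was also past 2-fold, as were 28.2% of all genes. The median log2 change was 0.66 for the 10 transporters and -0.09 for all genes tested. With libraries scaled by their totals only, 5 of the 10 were called higher and 3 lower, beside 76.7% of all genes called, and the median of all genes moved to -0.58. Without 30 h replicate 3 the 6 calls held, with log2 changes of 2.78 for Slc7a11, 1.38 for Slc3a2, 1.88 for Slc7a3, 1.20 for Slc1a5, 1.39 for Slc43a1 and -1.13 for Slc38a1. Day 0 and 30 h values were fully separate for 6 of the 10, against 79.7% of all genes tested.

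**Figure D1:**
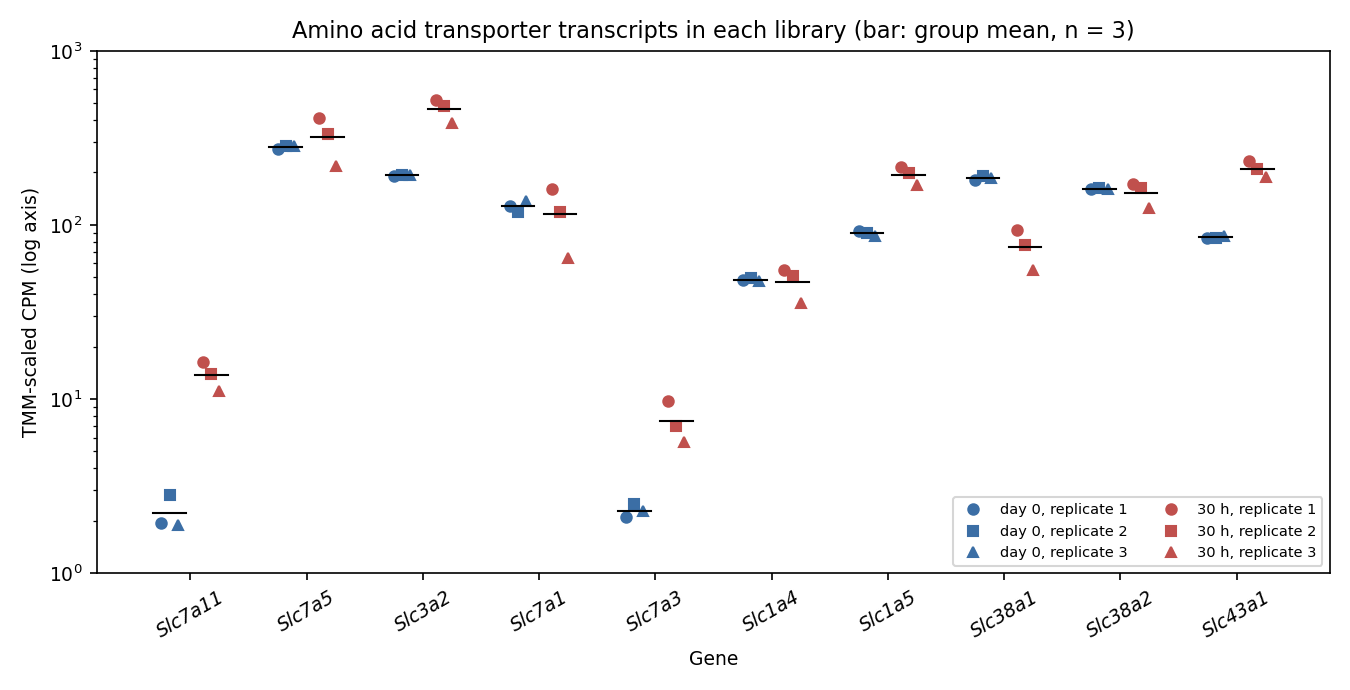
TMM-scaled CPM (log axis) of each transporter gene in each of the 6 libraries, with blue for day 0, red for 30 h, a marker shape for the replicate number and a bar for the group mean. The groups separate for 6 genes, 5 of them higher at 30 h and Slc38a1 lower, and the 30 h points spread more widely than the day 0 points.

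Among the heteromeric transporters, Slc7a11 showed the largest rise of the 10. It encodes xCT, the light chain that takes up cystine in exchange for glutamate and so supplies cysteine for glutathione (ENSMUSG00000027737, chromosome 3, 49892526 to 50443614, minus strand, mm10). It stood at 1.95, 2.80 and 1.88 CPM in the day 0 libraries and at 16.4, 13.9 and 11.1 CPM in the 30 h libraries. Every 30 h library was above every day 0 library, although day 0 rested on only 62 to 97 counts per library. The rise was 6.24-fold (log2 change 2.64, SE 0.22, edgeR adjusted p = 1.93e-05). Even so, Slc7a11 remained the lowest of the 10 per kilobase of exon, at 0.991 CPM per kb at 30 h, a level above that of 31.2% of the protein-coding genes tested, against 5.15% at day 0.

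Slc3a2, the heavy chain called 4F2hc or CD98 (chromosome 19, 8706882 to 8723369, minus strand), rose 2.39-fold. Its values were 191, 194 and 194 CPM at day 0 and 518, 484 and 386 CPM at 30 h (log2 change 1.26, SE 0.12, edgeR adjusted p = 4.88e-05). The groups were well apart, and the day 0 libraries lay within 1.02-fold of each other. By contrast, Slc7a5, the main light chain LAT1 for leucine and other large neutral amino acids (chromosome 8, 121881150 to 121907694, minus strand), did not pass the test. It was at 272, 283 and 282 CPM at day 0 and at 410, 333 and 218 CPM at 30 h, so the 30 h libraries fell on both sides of the day 0 values. Its log2 change was 0.20 with a 95% interval of -0.28 to 0.68 (edgeR adjusted p = 0.404). This result rested on 30 h replicate 3: without it the log2 change was 0.42 and passed (edgeR adjusted p = 0.000807). Removal of the dependence on GC content gave 0.79 (edgeR adjusted p = 0.00566), whereas scaling by totals only gave -0.29 (edgeR adjusted p = 0.254).

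The balance between these partners shifted in every library, and a ratio within a library does not depend on its scaling. Per kilobase of exon, Slc7a5 stood at 1.35, 1.39 and 1.38 times Slc3a2 in the day 0 libraries and at 0.753, 0.654 and 0.537 times Slc3a2 at 30 h. Light chain thus exceeded heavy chain in all 3 libraries before culture and was below it in all 3 afterwards. The mean ratio went from 1.37 ± 0.0200 to 0.648 ± 0.108 (SD, n = 3 each), a 2.14-fold drop. With the longest transcript as gene length the means were 1.15 and 0.545. The two-sided exact permutation test gave p = 0.1, the smallest value that 3 against 3 can give, and adjusted over the 6 ratios tested it was also 0.1. The ratio of Slc7a11 to Slc3a2 moved the other way, from 0.00290 ± 0.000661 to 0.00753 ± 0.000438 (exact permutation p = 0.1, n = 3 each). With all 6 light chains that pair with the heavy chain summed (Slc7a5, Slc7a6, Slc7a7, Slc7a8, Slc7a10 and Slc7a11, a set chosen after the values were seen), the ratio to Slc3a2 was 1.77 ± 0.0204 at day 0 and 0.764 ± 0.0968 at 30 h. Slc7a5 made up 77.5% ± 0.301 of that sum before culture and 84.5% ± 3.49 of it afterwards (SD, n = 3 each).

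**Figure D2:**
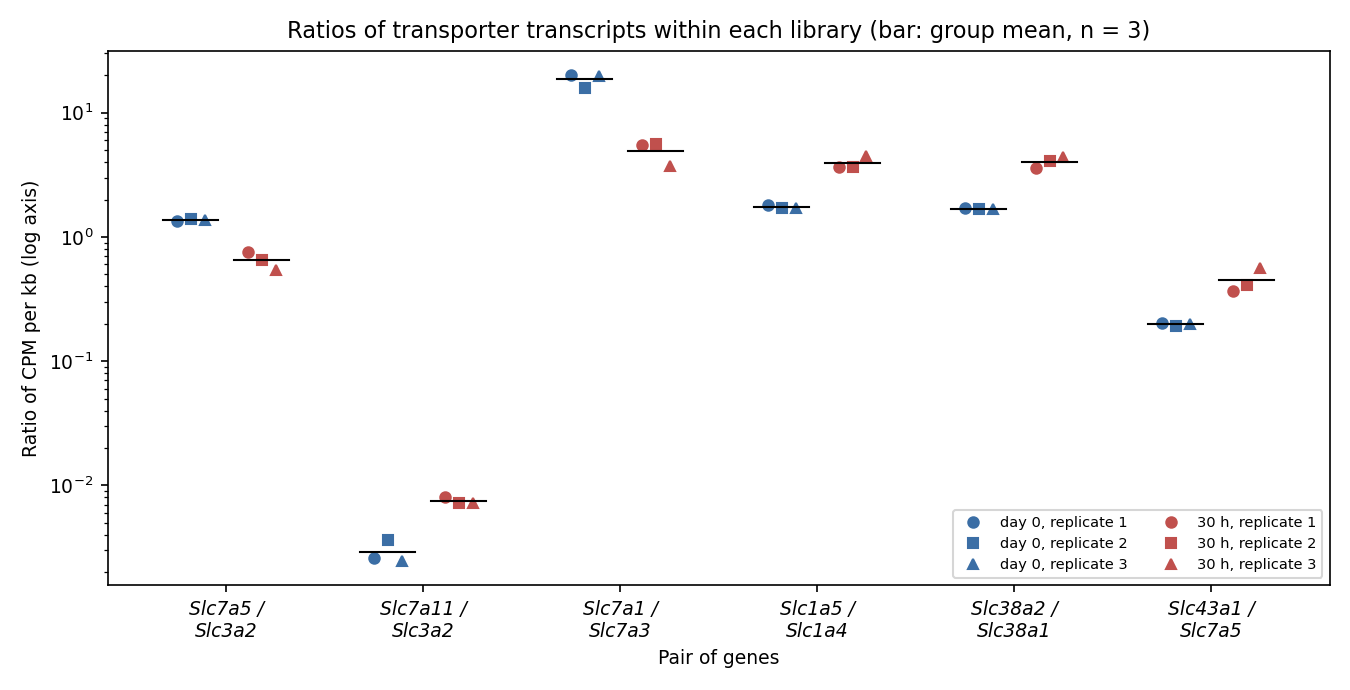
Ratio of CPM per kilobase of exon (log axis) for 6 pairs of transporter genes, computed within each library, with blue for day 0, red for 30 h and a bar for the group mean. In each of the 6 pairs all 30 h libraries lie on one side of all day 0 libraries, and Slc7a5 to Slc3a2 goes from 1.37 to 0.648. Such separation was common, as CPM of single genes separated for 79.7% of all genes tested. No share over other pairs of genes was computed.

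Among the 6 transporters with a promoter sequence at hand, Slc7a11 and Slc1a4 held the composite C/EBP-ATF element. Through these letters the stress factor ATF4 is known to act on amino acid genes. RefSeq promoter sequences (GRCm38.p6, 250 bases before to 50 after the transcript start) were at hand for 6 of the 10 transporters: Slc7a11, Slc3a2, Slc7a1, Slc1a4, Slc38a2 and Slc43a1. The other transporters and sequence outside this window were not searched, so the element may be present there. Stretches of Slc7a11 and Slc1a4 are shown because the pair share the element and differ in response. Both run 5′ to 3′ on the gene's strand, that of Slc7a11 at chr3:50443614-50443763 and that of Slc1a4 at chr11:20332710-20332863. Capitals mark TGATGCAA or its reverse complement.
Slc7a11: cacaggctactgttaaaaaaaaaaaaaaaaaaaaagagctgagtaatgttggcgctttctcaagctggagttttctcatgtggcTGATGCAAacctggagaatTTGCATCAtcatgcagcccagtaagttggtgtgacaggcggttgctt
Slc1a4: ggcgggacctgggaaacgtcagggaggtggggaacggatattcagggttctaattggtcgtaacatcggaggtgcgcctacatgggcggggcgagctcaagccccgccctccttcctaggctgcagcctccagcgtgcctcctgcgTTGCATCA
Slc7a11 holds the 8 letters once on each strand, with first bases 66 and 47 bases before the start. Slc1a4 holds them once, from 4 bases before the start to base 4 of the transcript, so its match spans the start. On either strand TGATGCAA occurred in 0.895% of 32851 RefSeq promoter windows of this length, and 2 or more times in 2 windows, of which Slc7a11 was 1.

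The same letters occurred in 4 of the 18 genes with a promoter sequence in a list of ATF4 and its textbook targets, namely Chac1, Atf3, Nupr1 and Vldlr. The first 3, named for this match and after their values were seen, are shown for comparison, at chr2:119351033-119351072 (plus strand), chr1:191183420-191183459 (minus strand) and chr7:126625557-126625596 (minus strand).
Chac1: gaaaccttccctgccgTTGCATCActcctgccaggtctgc
Atf3: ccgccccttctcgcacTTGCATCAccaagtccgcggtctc
Nupr1: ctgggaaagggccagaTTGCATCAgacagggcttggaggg
Chac1, which encodes an enzyme that degrades glutathione, rose 39.9-fold, the transcription factor gene Atf3 21.7-fold and the stress gene Nupr1 28.7-fold, beside 6.24-fold for Slc7a11. These folds start from low day 0 means of 0.592 CPM for Chac1, 1.89 CPM for Atf3 and 1.43 CPM for Nupr1. Vldlr, a lipoprotein receptor gene, went from 9.16 to 12.2 CPM and did not pass the test (edgeR adjusted p = 0.0774), though it passed with DESeq2 size factors (0.049), after removal of the GC trend (0.0469) and without 30 h replicate 1 (0.00609). Slc1a4 did not pass either. Among other plasma membrane transporters, 1 of 26 genes with a promoter sequence held the letters: Slc7a7, a light chain partner of Slc3a2, at 9.24 and then 9.50 CPM (log2 change 0.04, edgeR adjusted p = 0.804). Slc7a7 was called lower with scaling by totals only (-0.45, edgeR adjusted p = 0.0204) and higher with the GC trend removed (0.42, edgeR adjusted p = 0.0157). Under these settings the median of all genes was -0.58 and 0.18. Genes that hold these letters thus differed widely in their change. So did genes of the ATF4 list whose windows lack TGATGCAA. Of those, Trib3 rose 153-fold and Ddit3 70.6-fold, more than any gene above, whereas Aldh18a1 fell 1.87-fold. A match of letters is a description of the sequence and says nothing of binding. The looser TGATGNAA, which includes TGATGCAA, was found for the same pair of transporters and in 3.97% of all windows. It was found for 6 of the 18 genes of the ATF4 list, with Trib3 and Asns added. Of the other motifs searched on both strands, the antioxidant response element core TGACNNNGC was found for Slc43a1, Slc7a1 and Slc38a2 and in 12.4% of all windows, and the E-box CACGTG for Slc43a1 and in 7.15%. These are counts of genes beside shares of windows, and Slc7a1 had 2 windows. TGACNNNGC was also found for 6 of 7 genes in a list of NRF2 and its textbook targets. It was found for 5 of the 18 genes of the ATF4 list and 3 of the 26 other plasma membrane transporters. The GATA motifs AGATAA and TGATAA, found in 11.2% and 9.05% of all windows, were in none of the windows of the 6 members searched.

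Slc1a4 and Slc1a5 encode ASCT1 and ASCT2, which exchange small neutral amino acids, and ASCT2 is a main route for glutamine. Slc1a5 (chromosome 7, 16781340 to 16798274, plus strand) rose 2.16-fold. It was at 92.4, 90.3 and 86.3 CPM at day 0 and at 215, 198 and 169 CPM at 30 h, with no overlap (log2 change 1.11, SE 0.11, edgeR adjusted p = 5.48e-05). Removal of the GC trend gave a log2 change of 1.74. Slc1a4 (chromosome 11, 20302180 to 20332713, minus strand) was at 48.4, 49.5 and 47.6 CPM and then at 55.0, 50.8 and 35.8 CPM. The 30 h libraries lay above and below the day 0 libraries, and the log2 change of -0.04 had a 95% interval of -0.40 to 0.33 (edgeR adjusted p = 0.841). With scaling by totals only it was -0.52 and passed (edgeR adjusted p = 0.0229), which is 0.06 above the median of all genes under that scaling. Per kilobase, Slc1a5 was 1.74 ± 0.0495 times Slc1a4 at day 0 and 3.92 ± 0.453 times Slc1a4 at 30 h (SD, exact permutation p = 0.1, n = 3 each).

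Cationic amino acids such as arginine and lysine enter through CAT-1 and CAT-3, encoded by Slc7a1 and Slc7a3. Slc7a3 (chromosome X, 101079210 to 101086020, minus strand) rose 3.28-fold from a low level, with 2.09, 2.48 and 2.28 CPM at day 0 and 9.67, 7.03 and 5.67 CPM at 30 h. The groups did not overlap (log2 change 1.71, SE 0.22, edgeR adjusted p = 0.000197), on 74 to 86 counts per library at day 0. Slc7a1 (chromosome 5, 148327410 to 148399904, minus strand) was at 128, 119 and 137 CPM at day 0 and at 161, 119 and 64.3 CPM at 30 h. That is a 2.50-fold range among 30 h libraries, the widest of the 10 genes, and it spanned all the day 0 values. The log2 change was -0.16 with a 95% interval of -0.82 to 0.50 (edgeR adjusted p = 0.629), and 0.13 without 30 h replicate 3 (edgeR adjusted p = 0.341). Slc7a1 remained the more abundant of the pair, at 18.6 ± 2.42 times Slc7a3 per kilobase at day 0 and 4.91 ± 1.03 times Slc7a3 at 30 h (SD, exact permutation p = 0.1, n = 3 each). Slc7a1 also held 77.7% ± 2.65 and then 80.6% ± 4.88 of the summed level per kilobase of Slc7a1, Slc7a2 and Slc7a3.

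Slc38a1 and Slc38a2, which encode the sodium-coupled neutral amino acid transporters SNAT1 and SNAT2, lie near each other on chromosome 15 (96571418 to 96642913 and 96687392 to 96699730, both minus strand). Slc38a1 was the transporter of the 10 that fell. It stood at 182, 190 and 186 CPM at day 0 and at 92.9, 76.9 and 55.0 CPM at 30 h, with all 30 h libraries below all day 0 libraries. The decrease was 2.49-fold (log2 change -1.31, SE 0.18, edgeR adjusted p = 0.000273). In the same libraries the summed stem and progenitor, hepatoblast, endothelial and mesenchymal markers also fell, as given above. The part of any of these cell types in the fall of Slc38a1 was not tested. Slc38a2, a gene known to respond to amino acid shortage, was at 161, 163 and 161 CPM and then at 171, 162 and 125 CPM. Its log2 change was -0.08 with a 95% interval of -0.38 to 0.21 (edgeR adjusted p = 0.572). Scaling by totals only gave -0.57, which passed (edgeR adjusted p = 0.00606) and lay 0.01 above that scaling's median of all genes. Slc38a2 was 1.69 ± 0.0242 times Slc38a1 per kilobase at day 0 and 4.04 ± 0.427 times Slc38a1 at 30 h (SD, exact permutation p = 0.1, n = 3 each). The size of this ratio depends on the gene length used: with the longest transcript it was 1.03 and 2.46.

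Slc43a1, encoding LAT3, had the smallest adjusted p of the 10 and the narrowest spread among 30 h libraries, 1.23-fold from lowest to highest. Its gene lies on chromosome 2, 84838850 to 84863594, plus strand. Levels were 84.1, 83.7 and 86.5 CPM at day 0 and 233, 210 and 189 CPM at 30 h. Each 30 h library was above each day 0 library, a 2.49-fold rise (log2 change 1.31, SE 0.11, edgeR adjusted p = 1.51e-05). LAT3 and LAT1 both carry leucine, and the ratio of Slc43a1 to Slc7a5 per kilobase was 0.197 ± 0.00481 at day 0 and 0.448 ± 0.104 at 30 h (SD, exact permutation p = 0.1, n = 3 each). In the single libraries it was 0.201, 0.192 and 0.199, then 0.368, 0.410 and 0.565. Slc7a5 was therefore the higher of the pair in all 6 libraries.

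**Figure D3:**
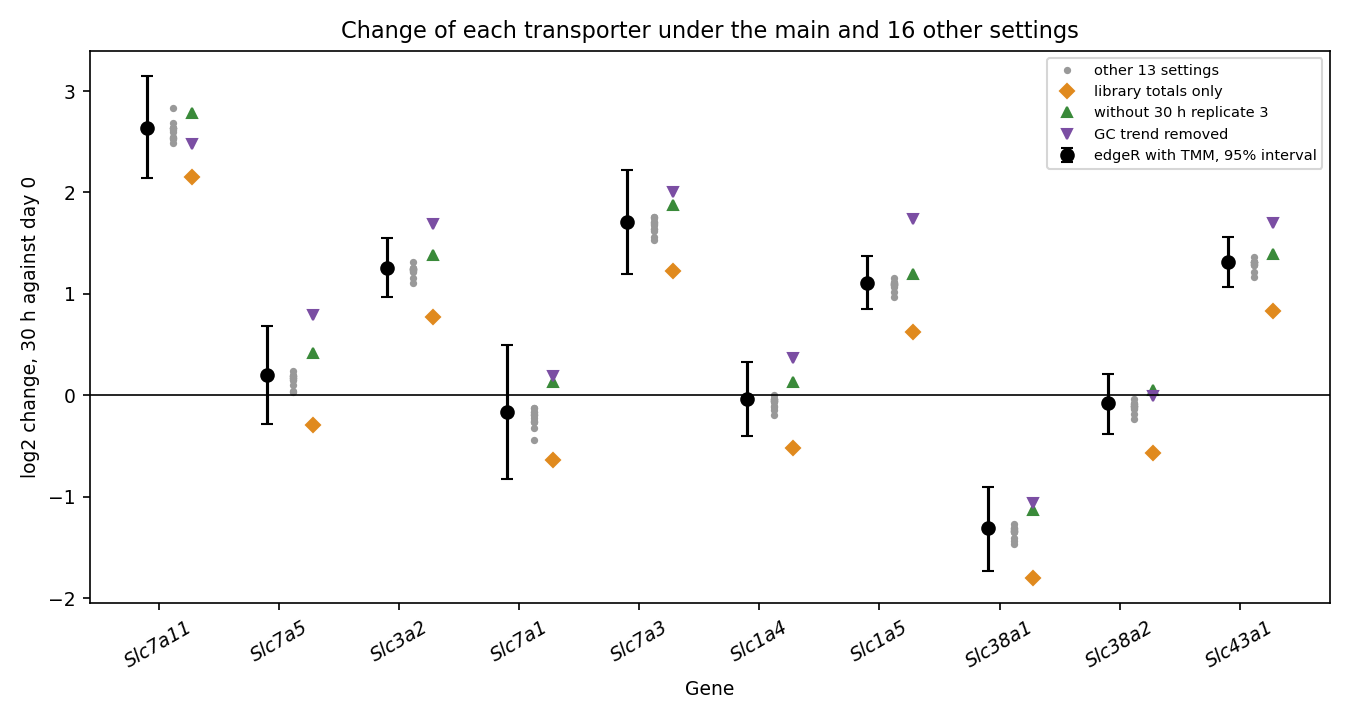
Log2 change of each transporter gene, 30 h against day 0. Black points are the edgeR estimates with TMM scaling and their 95% intervals, and coloured and grey marks are the estimates under 16 other settings. The 6 called genes keep their side of 0 under all 16, while Slc7a5, Slc7a1, Slc1a4 and Slc38a2 have marks on both sides of 0.

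Within the 30 h group, replicate 3 was the lowest and replicate 1 the highest library for all 10 transporters. Among all genes tested, replicate 3 was the lowest 30 h library for 43.5% and in this order for 30.7%. The ratio of highest to lowest 30 h library ran from 1.23 for Slc43a1 to 2.50 for Slc7a1, whereas at day 0 it ran from 1.02 to 1.49. Erythroid markers summed to 132734 CPM in 30 h replicate 3 and to 93717 and 92744 CPM in replicates 1 and 2. Most of that sum was the globin gene Hbb-bs, at 106624, 65692 and 66890 CPM in the same order. Replicate 3 was nevertheless the lowest 30 h library for 5 of the 9 erythroid markers. Hepatoblast markers summed to 2288 CPM in replicate 3 and to 784 and 2101 CPM in replicates 1 and 2. The part of these markers' cells in the transporter spread was not tested.

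Ordered by level per kilobase of exon at day 0, Slc7a5 came first with 75.2 ± 1.69 CPM per kb, then Slc3a2 with 54.7 ± 0.446, Slc1a5 with 21.5 ± 0.754 and Slc38a2 with 18.3 ± 0.160 CPM per kb. Slc43a1 followed with 14.8 ± 0.265, Slc1a4 with 12.3 ± 0.248, Slc7a1 with 11.1 ± 0.788 and Slc38a1 with 10.8 ± 0.221, and Slc7a3 and Slc7a11 were far lower at 0.603 ± 0.0516 and 0.159 ± 0.0367 CPM per kb. Neighbours in this order were separate in all libraries except Slc7a1 and Slc38a1, which overlapped. At 30 h Slc3a2 came first with 131 ± 19.5 CPM per kb, overlapping Slc7a5 with 86.3 ± 26.1. Slc1a5 with 46.4 ± 5.51 and Slc43a1 with 36.9 ± 3.78 came next and overlapped each other, and Slc1a4, at 9.11 CPM per kb or more, overlapped Slc7a1 with 9.95 ± 4.20 CPM per kb. Slc38a1 was at 4.35 ± 1.10, Slc7a3 at 1.97 ± 0.538 and Slc7a11 at 0.991 ± 0.192 CPM per kb (SD, n = 3 throughout). With the longest transcript as length Slc38a1 ranked above Slc43a1, Slc7a1 and Slc1a4 at day 0, at 25.6 CPM per kb. The 10 genes together summed to 1176 ± 10.7 CPM at day 0 and 1598 ± 315 CPM at 30 h, and Slc3a2 went from 24.9% ± 0.0577 to 38.0% ± 1.70 of their sum per kilobase.

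Among other amino acid transporters of the plasma membrane, more fell than rose. Of 36 listed, 21 passed the filter on low counts, and of these 4 rose and 14 fell, beside 34.4% higher and 40.1% lower among all genes tested. The median log2 change of the 21 was -1.45. Those that rose, 3 of which (Slc38a5, Slc43a2 and Slc16a10) carry neutral or aromatic amino acids, also included Slc6a9. Slc6a9 encodes the glycine transporter GlyT1, and glycine is a substrate of the first step of heme synthesis. It was at 8.48, 9.55 and 8.35 CPM at day 0 and at 172, 136 and 84.9 CPM at 30 h, a 14.9-fold rise without overlap (edgeR adjusted p = 7.06e-06). Its log2 change of 3.90 was 4.55 after removal of the GC trend. Slc16a10, the aromatic amino acid transporter TAT1, had the highest CPM of the list averaged over all libraries, though not at day 0, and rose 3.53-fold, from 70.7 ± 2.57 to 249 ± 42.9 CPM (SD, n = 3 each).

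The largest fall of that list was Slc36a2, a proton-coupled transporter of small amino acids, from 7.52 ± 0.925 to 0.239 ± 0.179 CPM (SD, n = 3 each), 32.4-fold (log2 change -5.02, edgeR adjusted p = 7.59e-06). It rested on 2, 3 and 7 counts at 30 h, and without 30 h replicate 3 the log2 change was -5.75. Slc38a4 and Slc7a2, named after their values were seen because they are known liver transporters, fell 16.2-fold and 10.7-fold (edgeR adjusted p = 9.58e-06 and 2.69e-05). The hepatoblast markers fell in the same libraries, and the part of hepatoblasts in the fall of Slc38a4 and Slc7a2 was not tested. Slc7a6, a light chain partner of Slc3a2 that was also named afterwards, fell from 73.7 ± 1.01 to 36.8 ± 0.669 CPM (SD, n = 3 each). Of 11 transporters of lysosomes and other organelles 10 were tested, and 5 rose and 3 fell, a share called near the 74.5% of all genes. With scaling by totals only 4 rose and 5 fell, with upper-quartile scaling 5 and 4, and with the GC trend removed 7 and 2. Slc15a3, which carries histidine and peptides, rose 5.01-fold (log2 change 2.33, and 3.03 with the GC trend removed) and Slc38a7, a lysosomal glutamine transporter, was 2.35-fold lower. Slc38a10, the most abundant of them by CPM, stood at 156 ± 7.74 and then 143 ± 25.7 CPM and was not called (edgeR adjusted p = 0.444). Its call turned on the scaling: it was lower with totals only (log2 change -0.61, edgeR adjusted p = 0.00631) and upper-quartile factors (-0.27, edgeR adjusted p = 0.0488), and higher with the GC trend removed (0.57, edgeR adjusted p = 0.00589). In the same order, the median of all genes was -0.58, -0.23 and 0.18.

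The factors ATF4 and NRF2, which answer stress, are known to act on Slc7a11 and other transporters. In the ATF4 list 14 of 20 genes rose and 4 fell, with a median log2 change of 1.52, beside 34.4% higher, 40.1% lower and a median of -0.09 for all genes tested. Atf4 itself went from 205, 209 and 219 CPM to 1516, 1553 and 1948 CPM, 7.93-fold higher (edgeR adjusted p = 1.16e-06). Trib3, a pseudokinase gene, rose 153-fold, and by over 1.5 times more after removal of the GC trend, whereas Aldh18a1, an enzyme of proline synthesis, was 1.87-fold lower (edgeR adjusted p = 0.00558). That call was lost in the edgeR test against a 1.5-fold change (adjusted p = 0.0553). It was also lost with the GC trend removed (edgeR adjusted p = 0.0686), where 16 genes of the list were higher and 1 lower. In the NRF2 list 6 of 10 rose and the other 4 did not pass, beside 34.4% higher and 40.1% lower among all genes tested. Its median log2 change was 1.19. The share called in either direction was smaller than the 74.5% of all genes. With totals-only scaling 5 were called higher and 2 lower, and 8 were higher without 30 h replicate 3 or with the GC trend removed. Gclm, which encodes a subunit of the enzyme that starts glutathione synthesis, rose 3.68-fold and the antioxidant gene Srxn1 12.5-fold. Nfe2l2, which encodes NRF2, did not pass, at 97.9 ± 0.585 and 104 ± 1.88 CPM (SD, n = 3 each, edgeR adjusted p = 0.361). Its log2 change of 0.09 became a called decrease with scaling by totals only (-0.40, edgeR adjusted p = 0.00334) and a called rise with the GC trend removed (0.26, edgeR adjusted p = 0.0419). Myc and Trp53, whose products are reported to act on several of these transporters, fell 2.16-fold and 2.35-fold (edgeR adjusted p = 0.000163 and 0.000734).

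**Figure D4:**
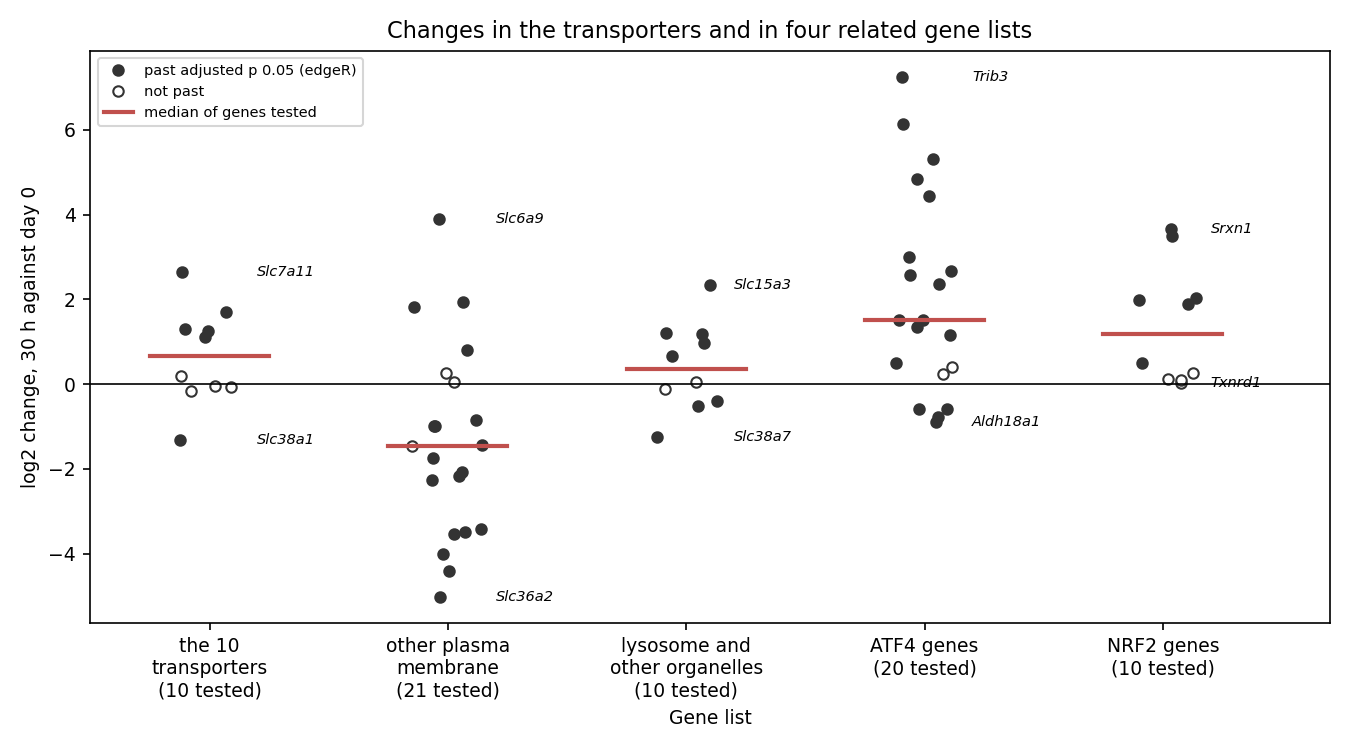
Log2 change, 30 h against day 0, of each gene tested among the 10 transporters and in 4 related lists. Filled points passed the edgeR test, open points did not, red bars are list medians, and the highest and lowest gene of each list is named. The bars stand at 0.66 for the 10 transporters, -1.45 for other plasma membrane transporters and 1.52 for the ATF4 list.

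The genes with the pattern most like that of Slc7a11 over the 6 libraries were Csf2rb2, Dcbld2 and Trp53inp1, with a root mean square difference in centred log2 CPM of 0.117, 0.126 and 0.151. Those most like Slc38a1 were Pik3r2, Acly and Usp10, at 0.030, 0.034 and 0.035. These were the closest of 9123 protein-coding genes with a mean of at least 10 CPM, a measure that includes the step from day 0 to 30 h.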

How the data were processed

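Gene counts from 6 libraries of total RNA were used, 3 per group, grouped by their titles. The authors deposited whole-number counts per Ensembl gene. Trimming, alignment and counting tools are known only from the submitters' processing notes, which list cutadapt 1.13, STAR, HTSeq 0.6.1p1, DESeq2 and build mm10. Settings, including strand, are not given in the sources used here. GENCODE M21 (GRCm38) gave symbols for 54165 of 54232 IDs, positions and exon lengths, and no exon of the 10 genes overlaps an exon of another gene there.

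Genes passing edgeR's filterByExpr (16150) were scaled by TMM. Their counts were tested in edgeR 4.0.16 (R 4.3.3) by the robust quasi-likelihood F test, and p-values were adjusted by Benjamini-Hochberg over all of them. Intervals use the fit's own degrees of freedom. CPM per kb divides CPM by the union of a gene's exons. Ratios were tested by exact permutation (scipy 1.17.1). Only the edgeR step was tried on simulated counts, with a small part of the genes changed and the same dispersion for all genes. In the data most genes were called and the groups differed in spread, so that simulation does not cover this setting. The members and lists were chosen with earlier results of these data known. Named genes are all 10 transporters, and in each other list the largest rise, the largest fall and the most abundant gene, plus Atf4, Nfe2l2, Myc and Trp53; any other gene was named after its values were seen. Patterns were compared for the largest rise and the largest fall. Alternatives were DESeq2 1.42.0, limma-trend (limma 3.58.1), a test against a 1.5-fold change, other scalings, globin genes left out, no filter, a block for the replicate number, omission of each library in turn, and a correction of the trend with GC content that was chosen after seeing the data. Replicates differed by more than sampling noise (chi-square per degree of freedom 4.29 to 99.8).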

Additional observations from a re-analysis of the deposited data

How the results depend on the processing

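The 6 called transporters kept their direction and their call under all 16 alternatives. Scaling by totals only gave 3 transporters lower in place of 1, 3601 genes higher over the whole table in place of 5553, 5 organelle transporters lower in place of 3, 2 NRF2 genes lower, and log2 changes of -0.29 for Slc7a5, -0.40 for Nfe2l2, -0.45 for Slc7a7 and -0.08 for Vldlr; this scaling moves the median of all genes by construction. The test against a 1.5-fold change left 1 organelle transporter and 1 ATF4 gene lower, and removal of the GC trend, which moved the median of all genes from -0.09 to 0.18, also left 1 ATF4 gene lower. With that trend removed Slc7a1 was at 0.19, Slc1a4 at 0.37, Phgdh at 0.06 and Slc38a10 at 0.57 on the log2 scale. Slc1a4 was at 0.0058 with DESeq2 size factors, and Nfe2l2 at -0.04 with upper-quartile factors and -0.0022 with no filter on low counts, settings in which Slc7a7 was at -0.10 and -0.06 in turn. The cause of these shifts was not tested.

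Leaving out 1 library at a time gave log2 changes from -0.44 to 0.13 for Slc7a1, from -0.11 to 0.13 for Slc1a4, -0.13 to 0.05 for Slc38a2 and -0.19 to 0.01 for Slc38a10, with the values above 0 obtained without 30 h replicate 3, and from -0.05 to 0.15 for Slc7a7. Without that library Slc7a5 also passed, and 6 transporters were higher. The 6 ratios kept their direction with the longest transcript as length, with each library left out in turn and with libraries paired by number. No other alternative was run on the ratios. Library scaling cancels in a ratio, but the GC correction need not, and its effect on the ratios was not tested. Paired by number, the exact sign-flip p was 0.25, the smallest for 3 pairs. Same-numbered libraries of the groups had deviations from their group means with correlations of -0.105, 0.105 and -0.029. Differently numbered libraries had correlations from -0.108 to 0.141. No sign of pairing by number was thus seen, but so few libraries cannot show that there was none. With the replicate number as a block, 5 transporters were higher and 1 lower, as without it, and 5254 genes in all were higher and 6277 lower; Slc7a11 was at 2.64 and Slc38a1 at -1.35 on the log2 scale. Depth limits the low genes most, Slc7a11 and Slc7a3, with fewer than 100 counts per library at day 0.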

Other observations

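A list of 8 other factors reported to act on the transporters gave 1 gene higher and 6 lower, beside 34.4% and 40.1% of all genes tested. Bach1, which encodes a heme-sensitive repressor of antioxidant genes, rose 2.54-fold, from 45.4 ± 1.84 to 115 ± 26.4 CPM (SD, n = 3 each, edgeR adjusted p = 0.000184). Nedd4, a ubiquitin ligase gene and the most abundant of the list by CPM, was at 972, 966 and 956 CPM at day 0 and at 375, 335 and 214 CPM at 30 h, with no overlap (edgeR adjusted p = 0.000131). Epas1, which encodes HIF-2 alpha, had the largest fall, 12.1-fold, from 7.42 ± 0.644 to 0.639 ± 0.452 CPM (SD, n = 3 each, edgeR adjusted p = 4.82e-05). It rested on 5, 9 and 18 counts at 30 h, and its log2 change was -3.59, or -4.27 without 30 h replicate 3.

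Among transporters of lysosomes, Slc38a9, an arginine-gated sensor that feeds mTORC1, rose from 9.69 ± 0.413 to 22.2 ± 0.847 CPM, and Pqlc2, an exporter of cationic amino acids, from 8.31 ± 0.884 to 18.8 ± 2.29 CPM (SD, n = 3 each, edgeR adjusted p = 2.35e-05 and 0.000135). Both were named after their values were seen. In the ATF4 list Asns, which makes asparagine, rose 2.54-fold, from 409 ± 3.76 to 1039 ± 219 CPM (SD, n = 3 each). Psat1, an enzyme of serine synthesis, fell 1.72-fold (edgeR adjusted p = 0.000134). Phgdh, another, was 1.52-fold lower (edgeR adjusted p = 0.000709), a call lost in the test against a 1.5-fold change (0.316) and with the GC trend removed (0.646). These genes too were named afterwards.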
